A study of Rattus norvegicus with 4 samples.

Results

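The genes described here encode the proteins of the cytosolic ribosome, measured in cultured rat neurons in which Cmtr1 was knocked down. They were chosen by name, as gene spots called Rpl or Rps with a number, together with Rpsa, Rplp0, Rplp1 and Rplp2, and without the Rps6k kinases. A probe was kept if at least 2 of the 4 arrays marked it well above background, and the probe with the highest mean signal stood for its gene. The rule found 82 genes with 126 probes, among 30371 genes kept from the whole array. Of these, 51 belong by name to the large subunit and 31 to the small subunit, and all 82 were well above background on all 4 arrays.

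Cortical neurons were taken from Sprague Dawley rat embryos of both genders at E18.5. The shCM1 cultures received a lentivirus with an shRNA against Cmtr1 and the shCTL cultures one with a control shRNA, both at day 2 in vitro, and both were lysed at day 7. The total RNA of each culture, amplified and labelled with Cy3, was hybridised to one-colour Agilent arrays, with 2 shCM1 arrays and 2 shCTL arrays from 2 independent experiments. The cultures were described as neurons with no sorting step, so other cells of the embryonic cortex can contribute RNA. The shRNA sequences were not given, and an effect of lower Cmtr1 cannot be told apart from another effect of the shRNA. In such bulk RNA, fewer cells of a type and less RNA per cell cannot be told apart either.

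A ribosome is built from a small subunit, which binds and reads the mRNA, and a large subunit, which joins amino acids, and its proteins are needed in near equal numbers. Most mammalian ribosomal protein mRNAs begin with a C followed by a run of pyrimidines, the terminal oligopyrimidine or TOP motif. Through this motif the mTOR pathway and the cap-binding protein LARP1 set how much they are translated. CMTR1 puts a methyl group on the sugar of the nucleotide next to the mRNA cap, and in mouse embryonic stem cells it has been linked to the expression of ribosomal protein genes.

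The sequences around the annotated transcription starts are shown first, because the cap, CMTR1's target and the TOP motif all lie there. Each window below runs 5′ to 3′ on the gene's strand and holds 15 bases before and 15 bases from the annotated start, from RefSeq, build GRCr8. Capitals mark a run of at least 5 letters C or T, read from a C within 5 bases of the annotated start on either side. Only the transcribed strand was searched. Letters before that C were not considered, so a marked run can be the tail of a longer stretch, as in Rps24. The genes are Rps26, the 5 others with the smallest p in the fit described below, and 4 whose signal was higher in shCM1 on both slides.
Rps26 (chr7:1643390-1643419, minus strand): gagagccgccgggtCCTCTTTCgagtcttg
Rpl28 (chr1:78083518-78083547, minus strand): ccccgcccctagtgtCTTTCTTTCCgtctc
Rps21 (chr3:187724023-187724052, plus strand): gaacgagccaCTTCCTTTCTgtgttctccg
Rpsa (chr8:128728864-128728893, plus strand): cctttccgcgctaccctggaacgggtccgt
Rpl5 (chr14:1995211-1995240, minus strand): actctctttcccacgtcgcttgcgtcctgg
Rpl22l1 (chr2:113683181-113683210, plus strand): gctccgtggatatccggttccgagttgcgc
Rpl3 (chr7:113507976-113508005, minus strand): ccagcgcctgctcgatctctatcggcggcg
Rpl36 (chr9:1533765-1533794, plus strand): ctgtccggccgccatcggaaagctgcaggt
Rpl35a (chr11:81235007-81235036, minus strand): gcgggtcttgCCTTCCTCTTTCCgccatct
Rps24 (chr16:96502-96531, plus strand): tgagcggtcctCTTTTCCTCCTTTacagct

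A start site was found for 66 of the 82 ribosomal protein genes, and 40 of the 66 (60.6%) held such a run. Over all 33469 promoters of the table, 5704 (17.0%) held one. For a ribosomal protein gene with several starts in the table, the start with the longest run was taken. The 33469 promoters were each counted singly, so these shares were not counted alike. The run was present in 24 of 42 large subunit genes (57.1%) and in 16 of 24 small subunit genes (66.7%). A match is only a description of these letters, and a start annotated a few bases away would move a run out of the searched place. Rpl5 shows this, since its window holds ctctttccc, which begins upstream of the searched bases, and was counted as having no run.

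Between 84.0% and 90.4% of the probes were well above background per array, and no gene spot was saturated. Values are given as relative signal, the processed signal of a probe divided by the 75th percentile signal of its array. That percentile was 596.3 and 743.7 in shCM1 and 652.2 and 754.5 in shCTL. Relative signals are compared only within a gene, since probes differ in how well they bind. Differences are log2 differences, shCM1 minus shCTL, given within each slide and then as their mean with the standard error of limma. Slide 1 carried replicate 1 of shCM1 and of shCTL, and slide 2 carried both of their replicates 2. Slide, scan and replicate number split the arrays alike, so differences between slides cannot be told apart from those between scans or replicates. The labels do not say whether each slide holds a separate experiment. Cmtr1 had relative signals of 0.0907 and 0.0869 in shCM1, against 0.372 and 0.276 in shCTL. Both shCM1 arrays lay below both shCTL arrays, with a difference of -1.85 (SE 0.22, n = 2 arrays per group; limma, adjusted p = 1.00 without a block and 1.38e-07 with slide as a block).

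The mRNA signals of the cytosolic ribosomal protein genes in shCM1 neurons were close to those in shCTL neurons. The median difference over the 82 genes was -0.03, with -0.01 on slide 1 and -0.05 on slide 2. The difference was below 0.25 in size for 81 of the 82 genes, and the exception was Rps26 at -0.49. Without Rps26 the genes ranged from -0.21 for Rpl28 to 0.15 for Rpl7l1. The SD of the differences over the 82 genes was 0.0914, or 0.0767 without Rps26, and over all 30371 genes it was 0.305. The gap between the slides had a median size of 0.0511 for the ribosomal protein genes and of 0.196 for all genes. Among the brightest genes, the 3037 with the highest mean signal, which hold 78 of the 82, the SD of the differences was 0.191, which is also wider.

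**Figure D1:**
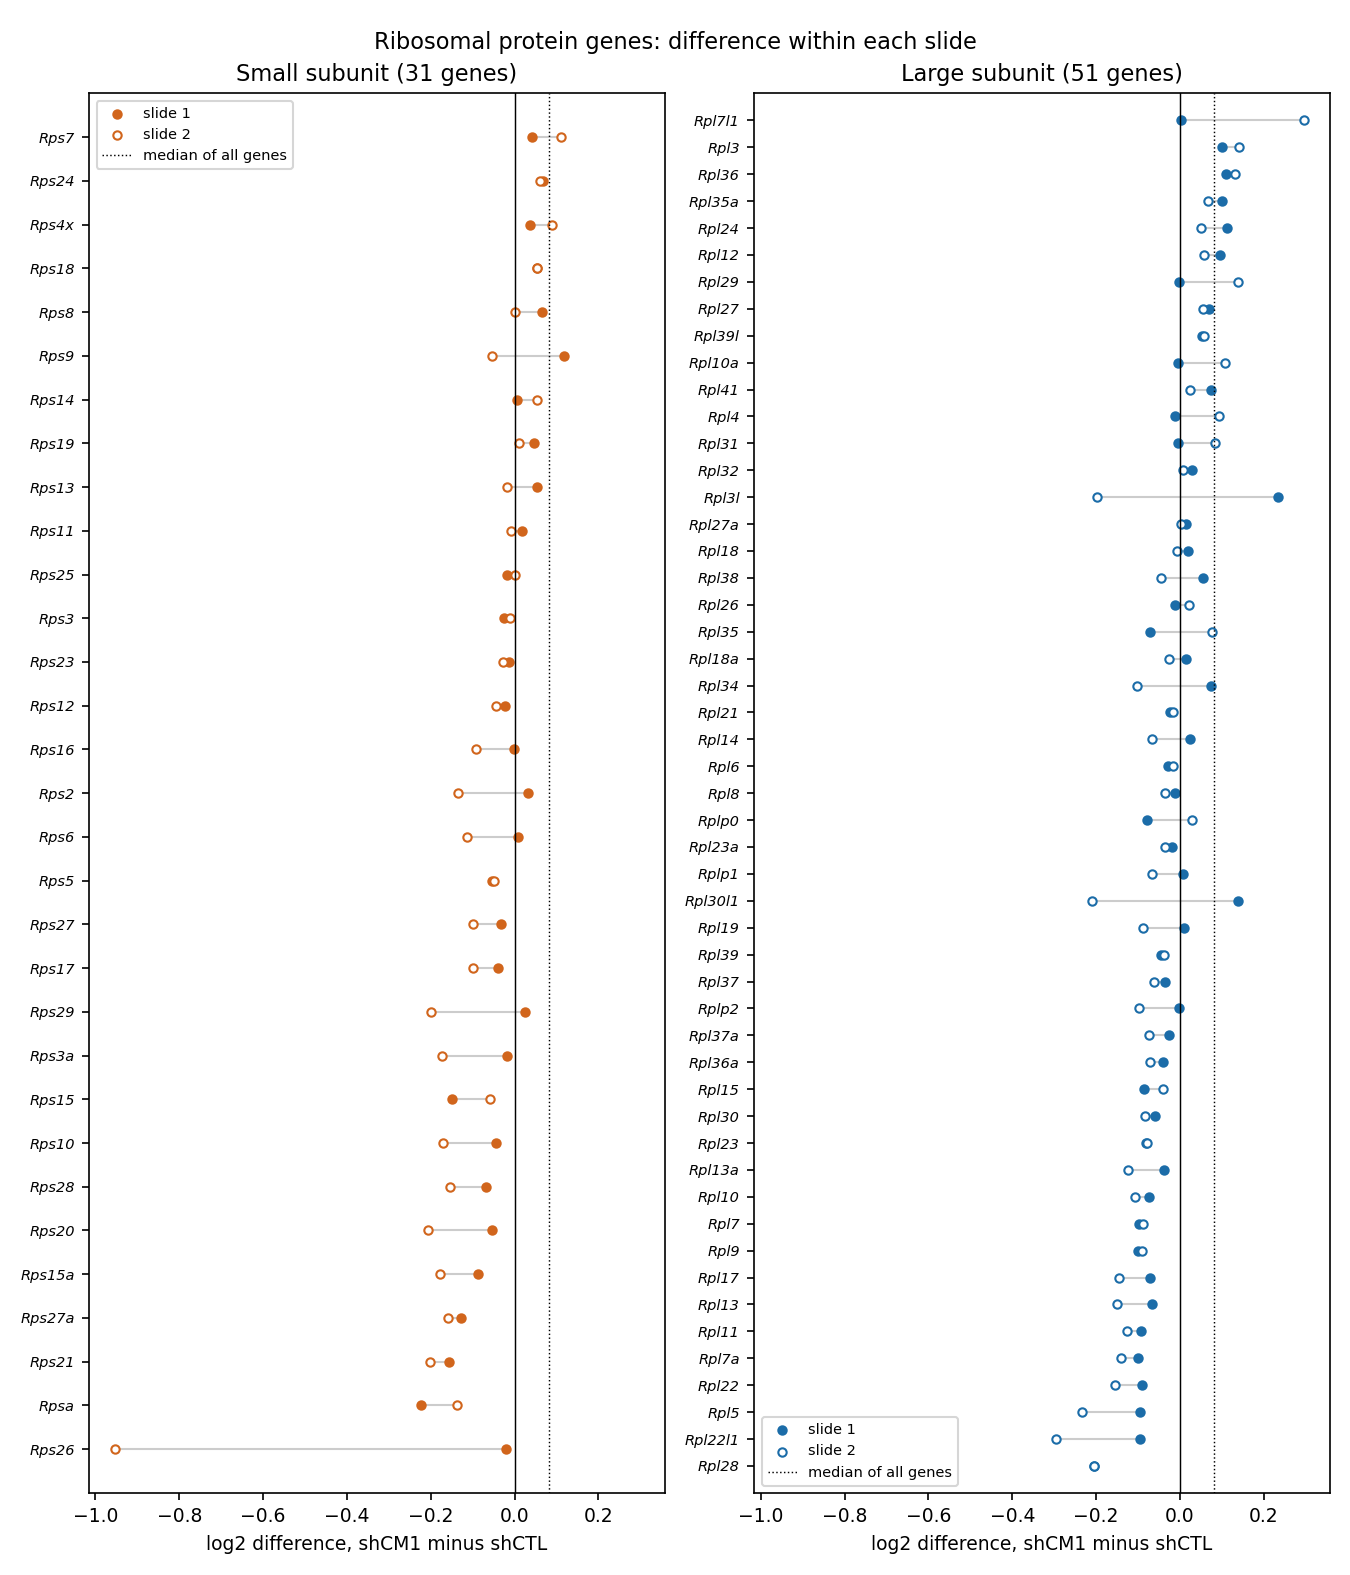
Log2 difference, shCM1 minus shCTL, of each small subunit gene (left panel) and large subunit gene (right panel), with filled points for slide 1 and open points for slide 2, and a dotted line at the median of all genes, 0.08. The points sit within 0.3 of 0 on both slides for every gene except Rps26, whose slide 2 point is at -0.95.

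No ribosomal protein gene passed the test without a block. limma without a block called 0% of the 30371 genes, with 909 genes at an unadjusted p under 0.05 and none of the 82 among them. For one gene alone, the smallest exact permutation p that 2 arrays against 2 allow is 0.33. With the slide as a block limma called 3.7% of all genes higher and 3.05% lower in shCM1. Of the ribosomal protein genes it called none higher and 1 lower, Rps26. At an unadjusted p under 0.05 in the blocked fit stood 6 of the 82, which were Rps26, Rpl28, Rps21, Rpsa, Rpl5 and Rpl22l1, all with lower signal in shCM1. That is 7.32% of the ribosomal protein genes, below the 22.7% of all genes at that p in the same fit. The 95% interval of the difference lay within 1.5-fold in either direction for 81 of the 82 genes in the blocked fit. Without the block it did so for 74 of the 82.

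The direction was mixed. In 41 of the 82 genes the signal was lower in shCM1 on both slides, in 18 it was higher on both and in 23 the slides went opposite ways. Over all genes 22.6% were lower on both slides and 44% higher on both. In those brightest genes the shares were 51.2% and 19.3%, close to the 50% and 22.0% of the ribosomal protein genes. Both shCM1 arrays lay below both shCTL arrays in 12 of the 82 genes, against 10.1% of all genes, and above both in 4, against 21.6% of all genes. Of the 3037 brightest genes 786 lay below in this way and 207 above, both larger shares than among the 82 genes. The median over all genes was 0.08 and that over the brightest genes was -0.06.

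**Figure D2:**
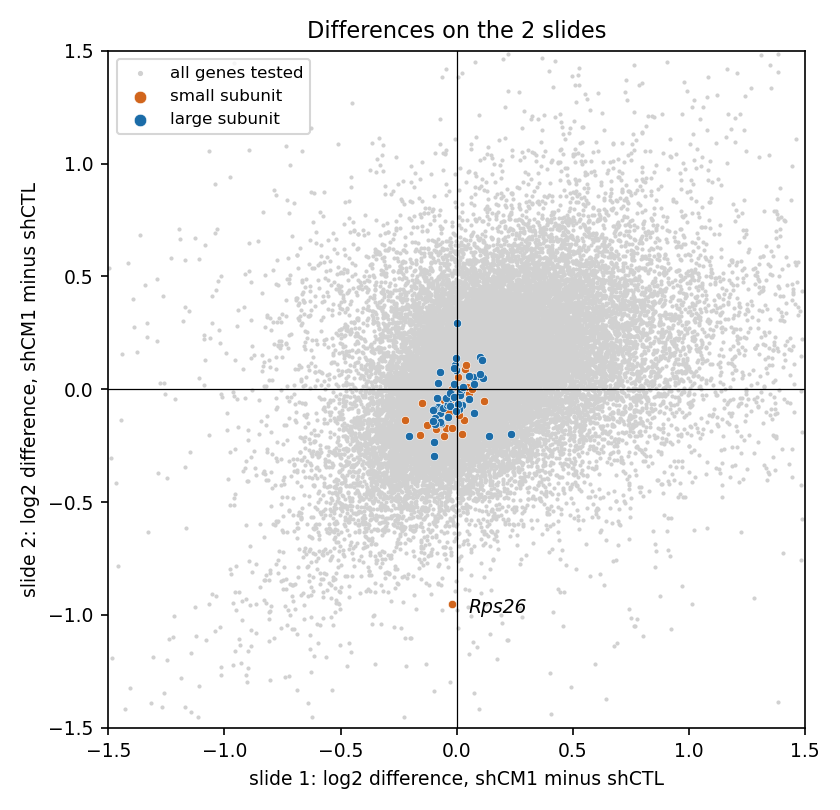
Log2 difference, shCM1 minus shCTL, on slide 1 (horizontal axis) and slide 2 (vertical axis) for all genes tested (grey) and for the small and large subunit genes (coloured). The ribosomal protein genes gather near the origin with Rps26 below them, and 396 genes with a difference beyond 1.5 on either slide fall outside the frame.

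How the arrays were scaled to one another set the sign of the group's median. It was -0.03 with the 75th percentile and -0.05 with normexp background correction, and it was 0.01 with quantile normalization, 0.01 in the authors' value table and 0.06 after cyclic loess. The count of genes lower on both slides against genes higher on both was 41 to 18 with the 75th percentile and 48 to 18 with normexp. It was 25 to 34 with quantile normalization, 25 to 31 in the authors' table and 12 to 51 after cyclic loess. With array medians in place of the 75th percentile it was 76 to 0, and with no scaling 59 to 0. With no scaling 31.8% of all genes were lower on both slides. The brightest genes had medians of -0.19 with array medians and -0.14 with no scaling, against -0.15 and -0.10 for the ribosomal protein genes. Over all genes the median moved too, between -0.04 with array medians and 0.08 with the 75th percentile. Relative to the all-gene median on the 75th percentile scale, 66 of the 82 genes were lower on both slides and 3 were higher on both. The median of the brightest genes, -0.06, was below the all-gene median too, and that count was not made for them.

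**Figure D3:**
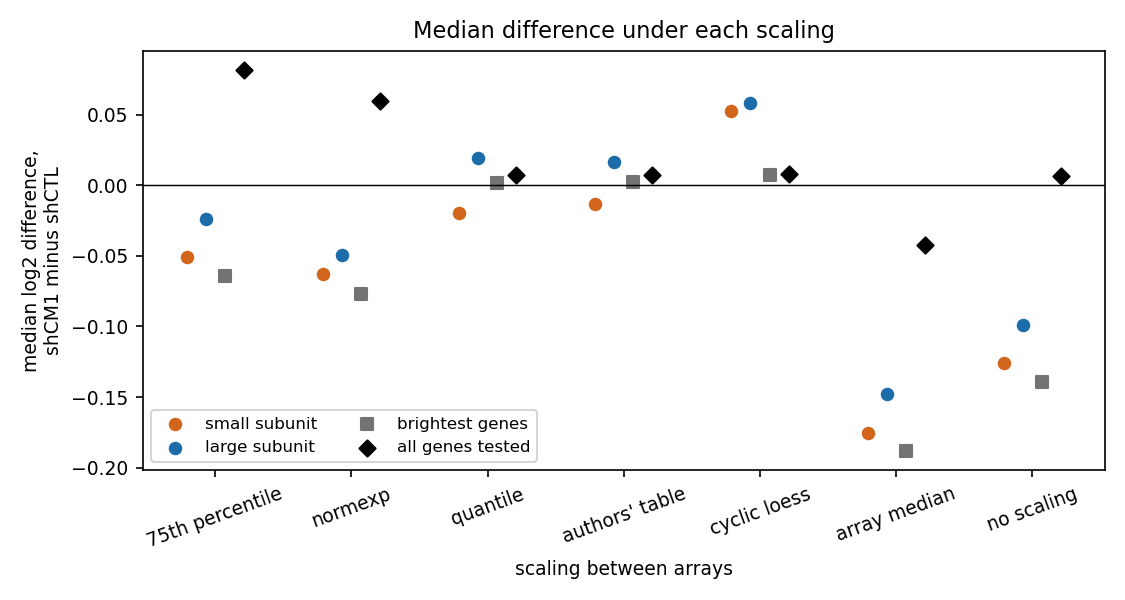
Median log2 difference, shCM1 minus shCTL (vertical axis), under each scaling between arrays (horizontal axis) for the small subunit genes, the large subunit genes, the brightest genes and all genes tested. Both subunits lie below 0 under 4 scalings, above 0 after cyclic loess, and on opposite sides of 0 with quantile normalization and in the authors' table.

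Across the 5 scalings of the 75th percentile, normexp, quantile normalization, cyclic loess and the authors' table, 11 genes were lower on both slides every time. These were Rps15a, Rps21, Rps27a, Rps28 and Rpsa of the small subunit and Rpl5, Rpl13, Rpl17, Rpl22, Rpl22l1 and Rpl28 of the large. A further 12 were higher on both slides every time, which were Rps4x, Rps7, Rps18, Rps19 and Rps24 and Rpl3, Rpl12, Rpl24, Rpl27, Rpl35a, Rpl36 and Rpl41. The 5 scalings use the same arrays, so a sign kept under all of them is not independent evidence. The same counts were not made for all genes or for the brightest genes. Whether the 11 and the 12 are more than other genes would give was therefore not tested. Under the array median scaling none of the 12 was higher on both slides. None of the 23 passed the blocked fit on the 75th percentile scale. With array medians the blocked fit called 9 ribosomal protein genes lower. They were Rpl5, Rpl28, Rps15a, Rps21, Rps27a, Rps28 and Rpsa of these 23, and Rpl7a and Rps20 beside them. With no scaling it called Rps21 and Rps26 lower. Over all 30371 genes the blocked fit called 1661 lower and 244 higher with array medians, and 1183 lower and 549 higher with no scaling. The genes are given here by their brightest probes. Of the 23, 13 had another probe, and in 5 of the 13, Rpl17, Rpl27, Rpl28, Rpl35a and Rps7, its mean difference had the opposite sign. The other probe of Rps7 was lower on both slides, at -0.04 and -0.20, and that of Rpl35a had a mean difference of -0.01. The other probe of Rps27a kept the sign of the mean, at -0.03, but its slides went opposite ways.

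The small subunit genes had a median difference of -0.05, with -0.02 on slide 1 and -0.06 on slide 2, and the large subunit genes one of -0.02, with -0.01 and -0.04. Of the 31 small subunit genes 17 were lower on both slides and 7 higher on both, and of the 51 large subunit genes 24 were lower and 11 higher. The small subunit median stood below the large one under every scaling shown in the plot of medians, by at most 0.04. Genes are not replicates, and the gap was not tested.

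Among the small subunit genes, Rps26 stood apart. Its protein lies where the mRNA leaves the small subunit, and mutations in the human gene cause Diamond-Blackfan anaemia. Its relative signal was 22.8 and 5.64 in shCM1, against 23.2 and 10.9 in shCTL. On slide 1 the groups were almost level, with a difference of -0.02, and on slide 2 the shCM1 array was lower by a difference of -0.95. The mean difference was -0.49 (SE 0.71, n = 2 arrays per group; limma, adjusted p = 1.00 without a block and 0.0316 in the blocked fit). The blocked call therefore rests on slide 2 alone. Without shCM1 replicate 2 the difference was 0.52, and without shCTL replicate 1 it was 0.06. Without shCM1 replicate 1 it was -1.5, and without shCTL replicate 2 it was -1.03.

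The signal of Rps26 also differed between the slides within each group. Slide 2 stood below slide 1 by a log2 difference of -2.02 in shCM1 and of -1.09 in shCTL. In the 81 other ribosomal protein genes that change ran from -0.88 to 0.29 in shCM1 and from -0.72 to 0.32 in shCTL. On slide 2 the next lowest difference between the groups was that of Rpl22l1, at -0.29. Over the whole array 163 genes (0.537%) were as low as Rps26 on slide 2. The difference of Rps26 was -0.42 with quantile normalization, -0.42 after cyclic loess, -0.40 in the authors' table and -0.52 with normexp, and the blocked call was lost under each (limma, adjusted p = 0.187, 0.233, 0.243 and 0.0568). It was also lost with array medians (0.0659), no filter on dim probes (0.230) and the mean of a gene's probes (0.0825). Over all alternatives with the block the adjusted p of Rps26 ran from 0.0147 with no scaling to 0.404 without the intensity trend in the variance prior.

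The rat genome holds many retrotransposed copies of ribosomal protein genes, and the RefSeq table names several for Rps26. The probe of Rps26 lies at chr7:1919153-1919212 on the minus strand of build rn4, per the probe annotation in the files. Among the other probes that the files describe as ribosomal protein S26, picked after their values were seen, 4 were bright. The probe of RGD1562415 had 91.6 and 82.3 in shCM1, against 80.0 and 79.1 in shCTL. The probe of RGD1559808 had 45.3 and 44.3 in shCM1, against 41.8 and 42.1 in shCTL. RGD1559808 was nearly level between the slides, and RGD1562415 was lower on slide 2 in both groups, by little in shCTL. The probe of RGD1565117 had 11.7 and 10.02 in shCM1, against 13.3 and 9.10 in shCTL, and that of LOC367077 had 12.3 and 9.60 in shCM1, against 12.2 and 8.66 in shCTL. These were lower on slide 2 in both groups, as Rps26 was, by a smaller step. On slide 2, where Rps26 was lower, the 4 probes had differences from 0.06 to 0.15, and on slide 1 from -0.18 to 0.20. Which transcripts each of these probes binds was not tested.

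**Figure D4:**
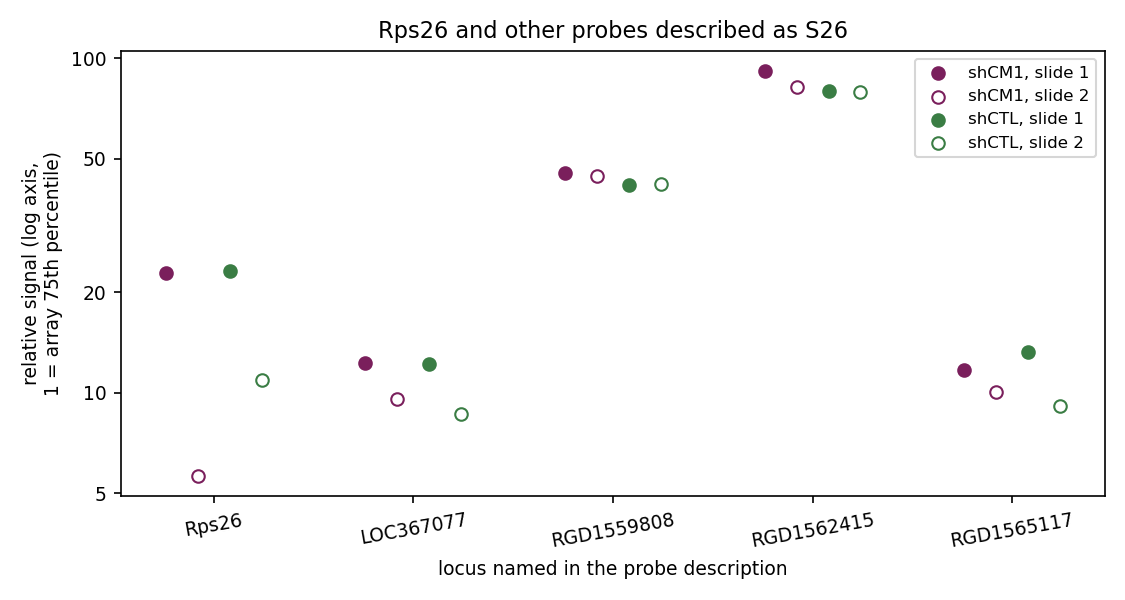
Relative signal (vertical log axis, 1 is the array's 75th percentile) of Rps26 and of 4 other probes described as S26 in the shCM1 and shCTL arrays of slide 1 (filled) and slide 2 (open). Rps26 is lower on slide 2 in both groups and lowest in the shCM1 array of slide 2, with 5.64 against 22.8 on slide 1. RGD1565117, LOC367077 and RGD1562415 are also lower on slide 2 in both groups, by less, and RGD1559808 is nearly level. Heights are not comparable between probes.

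Rpsa, the laminin receptor protein of the small subunit, had relative signals of 47.5 and 43.2 in shCM1, against 55.5 and 47.5 in shCTL. It was lower on both slides, by -0.22 and -0.14, while the arrays of the groups met at 47.5. Rps21, which binds beside Rpsa, had 113 and 94.1 in shCM1, against 126 and 108 in shCTL. Its groups overlapped as well, since slide 1 was brighter for it than slide 2 in both groups. The differences were -0.18 for Rpsa (SE 0.14; limma with the block, adjusted p = 0.160) and -0.18 for Rps21 (SE 0.15; 0.139).

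Rps27a, made as a fusion with ubiquitin, had 93.3 and 71.9 in shCM1, against 102 and 80.3 in shCTL, with differences of -0.13 and -0.16 on the slides. By a dimmer probe of Rps27a the slides went opposite ways, at 0.14 and -0.20. Rps6, the target of the S6 kinases downstream of mTOR, had 208 and 160 in shCM1, against 207 and 173 in shCTL. The slides of Rps6 went opposite ways, at 0.01 and -0.11. Rps27, a zinc finger protein, had 68.1 and 60.1 in shCM1, against 69.7 and 64.5 in shCTL, a difference of -0.07. Rps3, which lines the mRNA entry channel, had 77.5 and 79.8 in shCM1, against 78.8 and 80.4 in shCTL, a difference of -0.02. For these 4 genes the ranges of the groups overlapped.

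At the other end of the small subunit, Rps18 of the subunit's head had 154 and 150 in shCM1, against 148 and 144 in shCTL. Both slides gave a difference of 0.05, and both shCM1 arrays lay above both shCTL arrays. Rps19, the gene most often mutated in human Diamond-Blackfan anaemia, had 124 and 122 in shCM1, against 120 and 121 in shCTL, so the groups were also separate, by a difference of 0.03. Rps24 had 80.8 and 87.9 in shCM1, against 77.1 and 84.3 in shCTL, and Rps4x, which is on the X chromosome, had 26.9 and 28.7 in shCM1, against 26.3 and 27.0 in shCTL. Both had differences of 0.06 with overlapping groups. None of the 4 passed either fit.

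Among the large subunit genes, Rpl28 had the lowest mean difference. Its relative signal was 32.3 and 35.0 in shCM1, against 37.2 and 40.4 in shCTL, and both shCM1 arrays lay below both shCTL arrays. The slides gave -0.20 and -0.21, and the mean was -0.21 (SE 0.13, n = 2 arrays per group; limma with the block, adjusted p = 0.113). A dimmer probe of Rpl28 had a difference of 0.03, with -0.04 and 0.10 on the slides, so the lower signal was seen by the brightest probe only.

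Rpl22 and its paralog Rpl22l1 encode RNA-binding proteins that replace each other on the ribosome, and in mice loss of Rpl22 raises Rpl22l1. Rpl22l1 had 4.51 and 4.80 in shCM1, against 4.81 and 5.89 in shCTL. Rpl22 had 28.5 and 28.4 in shCM1, against 30.3 and 31.6 in shCTL. Both genes were lower in shCM1 on both slides with the groups separate, and neither passed, with differences of -0.20 (SE 0.17; limma with the block, adjusted p = 0.213) for Rpl22l1 and -0.12 (SE 0.12; 0.368) for Rpl22.

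Rpl5 and Rpl11 form, with the smallest ribosomal RNA, the particle that binds the p53 regulator Mdm2 when ribosome assembly is disturbed. Rpl5 had 54.3 and 47.6 in shCM1, against 58.0 and 56.0 in shCTL. Rpl11 had 101 and 96.9 in shCM1, against 108 and 106 in shCTL. In both genes the shCM1 arrays lay below the shCTL arrays, with differences of -0.16 (SE 0.13; limma with the block, adjusted p = 0.204) for Rpl5 and -0.11 (SE 0.11; 0.381) for Rpl11. Rpl7a had 212 and 204 in shCM1, against 227 and 225 in shCTL, and its difference of -0.12 did not pass either. Rpl13a, known in human monocytes for a role in silencing inflammatory mRNAs, had 136 and 130 in shCM1, against 140 and 141 in shCTL, a difference of -0.08. Rpl10, which joins the large subunit late in its maturation, had 118 and 98.1 in shCM1, against 124 and 106 in shCTL, with overlapping groups and a difference of -0.09.

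In the other direction stood Rpl36 and Rpl3. Rpl36 had 86.8 and 88.7 in shCM1, against 80.4 and 81.0 in shCTL, with the groups separate and a difference of 0.12 (SE 0.11; limma with the block, adjusted p = 0.338). Rpl3, which reaches towards the site of peptide bond formation, had 21.4 and 19.8 in shCM1, against 19.9 and 17.9 in shCTL, with the groups overlapping and a difference of 0.12 (SE 0.14; 0.386). Rpl35a had 27.3 and 31.1 in shCM1, against 25.5 and 29.7 in shCTL. Rpl12, at the base of the stalk that binds elongation factors, had 77.5 and 83.8 in shCM1, against 72.6 and 80.5 in shCTL. Rpl27 had 33.6 and 41.0 in shCM1, against 32 and 39.5 in shCTL. These 3 genes had differences of 0.08, 0.08 and 0.06 and overlapping groups.

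Rpl26, Rpl38 and Rpl39 were nearly level. Rpl26, known in human cells to bind p53 mRNA, had 196 and 172 in shCM1, against 198 and 169 in shCTL, a difference of 0.01. Rpl38, needed for the translation of Hox mRNAs in mouse embryos, had 125 and 111 in shCM1, against 121 and 115 in shCTL, a difference of 0.01. Rpl39, which lines the exit tunnel of the nascent protein, had 158 and 144 in shCM1, against 163 and 148 in shCTL, a difference of -0.04. The blocked 95% intervals of Rpl26 and Rpl38 ran from -0.14 to 0.15 and from -0.15 to 0.16.

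The stalk proteins recruit elongation factors to the large subunit. Rplp0, the stalk's base, had 12 and 13.5 in shCM1, against 12.6 and 13.2 in shCTL. Rplp1 had 454 and 344 in shCM1, against 451 and 360 in shCTL, and Rplp2 had 93.9 and 102 in shCM1, against 94.1 and 109 in shCTL. The groups overlapped for all 3 genes, and the differences were -0.02 for Rplp0, -0.03 for Rplp1 and -0.05 for Rplp2.

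The name rule also took paralogs that other tissues use or that work in ribosome assembly. Rpl3l, a form of Rpl3 in striated muscle, had 0.319 and 0.258 in shCM1, against 0.271 and 0.296 in shCTL, and its slides went opposite ways at 0.23 and -0.20. Rpl39l, a form of Rpl39 known from testis, had 0.175 and 0.185 in shCM1, against 0.169 and 0.178 in shCTL, a difference of 0.06. Rpl7l1, a relative of Rpl7, had 0.592 and 0.673 in shCM1, against 0.591 and 0.549 in shCTL. Its difference of 0.15 (SE 0.17; limma with the block, adjusted p = 0.481) was the highest of the 82 genes and came from slide 2, at 0.30, with 0.00 on slide 1. All 3 lay below the 75th percentile of every array and still well above background.

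For 33 of the genes another probe could be compared with the brightest one. These 44 other probes had differences from -0.27 to 0.20, with a median gap of 0.0430 to the brightest probe. Gaps reached 0.23, as large as the differences themselves, and 13 of the 44 probes, in 12 genes, had a mean difference of the opposite sign. Rpl37 had -0.05 by its brightest probe and 0.19 by its other one. For 6 of the 81 genes with a RefSeq entry the annotated place of the probe was on another chromosome than the gene in GRCr8 or unplaced. These were Rpl10a, Rpl13, Rpl32, Rpl37a and Rpl38, and Rpl36, whose probe was unplaced. Apart from the 82 genes, 197 genes whose probes are described as ribosomal protein were kept. Their median difference was -0.03, with 83 lower and 45 higher in shCM1 on both slides.

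Rps25, which contacts viral and cellular internal ribosome entry sites, had probes on both strands of one place, chr8:47375104-47375163 in build rn4. The sequences are shown because each is the exact reverse complement of the other, so that they read opposite strands of the same 60 bases.
Rps25 plus strand: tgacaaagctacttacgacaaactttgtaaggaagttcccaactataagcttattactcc
Rps25 minus strand: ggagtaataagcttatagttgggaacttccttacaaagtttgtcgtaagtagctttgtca
The plus strand probe had 39.2 and 43.5 in shCM1, against 39.7 and 43.5 in shCTL, a difference of -0.01. The minus strand probe had 4.67 and 3.11 in shCM1, against 4.06 and 3.33 in shCTL, with slide differences of 0.20 and -0.10. The slides did not share a sign on either strand.

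The median difference was -0.0337 over the 40 genes with a marked run near the annotated start, with -0.0196 on slide 1 and -0.0634 on slide 2. Of these 40 genes 20 were lower and 8 higher in shCM1 on both slides. Over the 26 genes without a run the median was -0.0279, with -0.00198 and -0.0681 on the slides, and 13 of them were lower and 6 higher. It was -0.0253 over the 16 genes with no start site in the table. The difference between these groups was not tested. Among the windows shown above, Rps26, Rpl28 and Rps21 hold a run and were lower on both slides, and Rpl35a and Rps24 hold one and were higher on both.

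Some proteins of the cytosolic ribosome have genes with other names, which the rule left out, and 3 of them are given here. Fau, which carries a small subunit protein, had 129 and 122 in shCM1, against 132 and 128 in shCTL, a difference of -0.05. Gnb2l1, the older symbol of the small subunit scaffold Rack1, had 20.6 and 23.0 in shCM1, against 22.2 and 22.4 in shCTL, a difference of -0.04. Rpl36al, a copy of Rpl36a, had 33.4 and 27.1 in shCM1, against 34.5 and 38.4 in shCTL, and like Rps26 it was lower mainly on slide 2, at -0.51 with -0.05 on slide 1 (limma with the block, adjusted p = 0.0762).

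Other lists of the translation machinery were set beside the ribosomal protein genes by their counts. The 68 mitochondrial ribosomal protein genes, which serve the ribosome inside mitochondria, had a median of -0.14, with 48 lower and 6 higher in shCM1 on both slides. The blocked fit called 6 of them lower and none higher, and the median was -0.09 with quantile normalization, -0.09 after cyclic loess and -0.13 with normexp. Mrpl37 had 34.0 and 25.7 in shCM1, against 41.3 and 37.9 in shCTL, and fell by 0.42 (SE 0.17; limma with the block, adjusted p = 0.00372). No test of the mitochondrial against the cytosolic list was made.

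The 21 other mRNAs known to begin with a TOP motif had a median of -0.10, with 11 lower and 1 higher on both slides. That median was -0.0149 with quantile normalization, -0.0147 in the authors' table and -0.0154 after cyclic loess. The blocked fit called Eef2 and Eif3l lower and none higher. Eef2, the factor that moves the ribosome along the mRNA, had 35.2 and 28.4 in shCM1, against 51.1 and 43.9 in shCTL, and fell by 0.58 (SE 0.16; limma with the block, adjusted p = 7.45e-05). Of 36 ribosome assembly factors 19 were lower and 5 higher on both slides, with a median of -0.05, and none was called. Of 14 genes of RNA polymerase I and its factors 7 were lower and 3 higher, with 2 called lower, the polymerase subunit listed as Rpo1-3 and Ubtf. Among 16 regulators of ribosomal protein mRNA, 6 were lower and 6 higher. The 6 higher include Pdk1, a symbol that may not name the kinase intended for this list. Only Eif4ebp2 was called. This repressor of cap-dependent translation had 2.14 and 2.30 in shCM1, against 4.10 and 4.94 in shCTL, and fell by 1.02 (SE 0.17; limma with the block, adjusted p = 1.15e-06). Larp1 and Mtor had differences of 0.00 and -0.06.

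**Figure D5:**
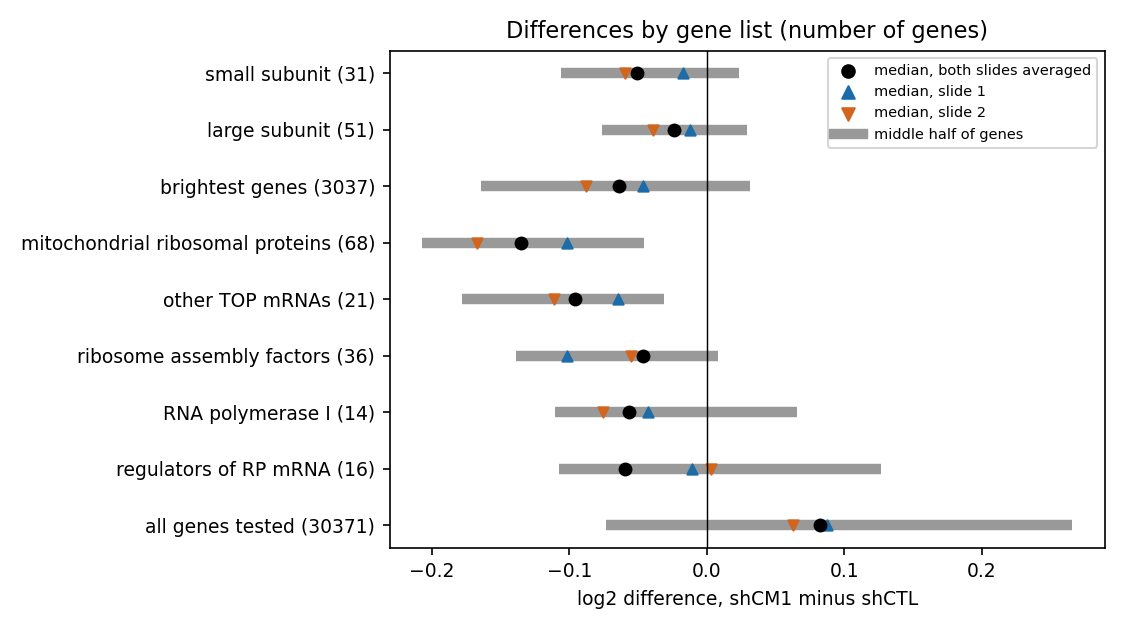
Median log2 difference, shCM1 minus shCTL, of each gene list over both slides (circle), on slide 1 (triangle up) and on slide 2 (triangle down), with a grey bar over the middle 50% of its genes. The small and large subunit lists lie at -0.05 and -0.02, the mitochondrial ribosomal proteins at -0.14 and all genes at 0.08.

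Some cell type markers differed between the groups, where the blocked fit called 3.7% of all genes higher and 3.05% lower. Of 15 microglia markers 14 were higher in shCM1 on both slides, their median difference was 0.67, and the blocked fit called 8 higher. That median was 0.56 with quantile normalization and 0.28 with normexp. The summed relative signal of the 15 was 4.65 and 3.67 in shCM1, against 3.03 and 2.75 in shCTL, with 14 of them well above background on all arrays. The 10 neuron markers were all well above background on all arrays. Of these 7 were lower on both slides, and the blocked fit called Gap43 and Tubb3 lower. Their summed relative signal was 433 and 337 in shCM1, against 471 and 384 in shCTL. Of 8 inhibitory neuron markers 4 were called higher, of 7 excitatory neuron markers 3 were called lower, and of 10 astrocyte markers none was called. The excitatory neuron markers were mixed, with 3 lower on both slides, 2 higher on both and 2 whose slides went opposite ways. Their median difference was -0.22, and it was -0.38 with quantile normalization and -0.04 with normexp. Of 6 fibroblast markers 2 were called higher, and of 9 endothelial and pericyte markers 1 was called higher. Of 10 oligodendrocyte lineage markers 2 were called higher and 1 lower. Among 8 markers of progenitor and dividing cells 2 were called higher and 3 lower. The part of these shifts in the values of the ribosomal protein genes was not tested.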

How the data were processed

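The authors deposited 4 Agilent scanner files whose linear spot intensity values came, per the file headers, from Feature Extraction 10.7.3.1, which had also corrected the processed intensity used here for background. The authors' deposited value table also holds linear intensity values. It correlated with the arrays at 0.9998 or above on the log2 scale, how it was made is not given in the sources used, and it served as an alternative.

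Spots of a probe were averaged without outlier marks (86 to 98 gene spots per array were left out), converted to log2 and reduced by the 75th percentile of their array. Two-sided tests with lmFit and an eBayes prior that follows intensity (limma 3.58.1, R 4.3.3) were run on all 30371 genes with Benjamini-Hochberg adjustment and a threshold of 0.05. The design without a block was the main one, with the slide as a block beside it. The slides come from the file headers. Deviations of same-numbered arrays correlated at 0.713, and the leading principal component (65.3% of the variance) separated the slides. The blocked variance prior held 18.7 degrees of freedom, so a gene can pass although its slides differ.

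The ribosomal protein genes and all lists were chosen with earlier results of these data known. Named genes were those called, the 8 in each direction with the largest smaller slide difference, fixed well-known genes and paralogs. The tests were tried on simulated data. The labels give 2 independent experiments but not how cultures were kept apart, so p-values measure the spread between these arrays. Precision is limited by how few arrays there are. Sample titles carry si where the other labels carry sh. Alternatives were other scalings, background correction, filters, probe choice, the variance trend and leaving out each array.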

Additional observations from a re-analysis of the deposited data

How the results depend on the processing

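The alternatives added after seeing the data were scaling by array medians, no scaling, and the median without Rps26, which was -0.03. With the slide as a replicate block, which pairs arrays of 1 replicate number, the fit called 2050 genes in all and 1 ribosomal protein gene, against 0 and 0 without it. The blocked fit called 931 genes with quantile normalization, 742 after cyclic loess, 681 in the authors' table, 1418 with normexp, 368 with no filter on dim probes and 1473 with the mean of a gene's probes, and no ribosomal protein gene under any of these. With the filter on all 4 arrays it called 2038 genes and 1 ribosomal protein gene, Rps26. With array medians it called 1905 genes and 9 ribosomal protein genes, and with no scaling 1732 genes and 2. Without the intensity trend it called 0 genes (limma), with 5107 at an unadjusted p under 0.05. Without a block no alternative called a ribosomal protein gene, and leaving out 1 array called 0 to 1 genes in all.

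The median of the ribosomal protein genes was 0.00785 with quantile normalization, 0.0577 after cyclic loess, 0.0105 in the authors' table, -0.152 with array medians and -0.103 with no scaling, with or without the block. In the same order it was 0.0193, 0.0586, 0.0165, -0.148 and -0.0992 for the large subunit, which had -0.0492 with normexp, and -0.0196, 0.0524, -0.0133, -0.175 and -0.126 for the small subunit. Leaving out 1 array gave medians from -0.0833 to 0.0133 for all, from -0.0797 to 0.0214 for the large and from -0.0861 to 0.00738 for the small subunit genes. Of the values of single named genes under the alternatives, 767 kept their side of the threshold and moved little, 10 newly passed and 15 moved further. The cause of these shifts was not tested.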
